A study of Mus musculus with 12 samples.

Results

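The genes described here are 125 zinc finger genes of the mouse, read from hippocampal RNA after kainate or saline in control and mutant animals. They were taken by name. A probe set (the group of oligonucleotides that reads 1 transcript on the array) was used if its platform annotation gave 1 gene symbol that began with Zfp, Zbtb, Zscan or Zkscan and a number, and if its value was over 4 on the log2 scale on at least 3 of the 12 arrays. Symbols that begin with Zfp36 were left out. Zfp36 itself names an RNA-binding protein with another kind of zinc finger, but the rule also drops any longer symbol with this beginning, whatever its protein. Of 191 genes with such a symbol on the array 125 passed, and the other 66, among them Zbtb7b, Zbtb10, Zbtb2, Zbtb25, Zfp385b, Zfp503 and Zkscan3, did not reach that level. The whole series held 4617 genes with 1 symbol that passed the same filter. A gene with several probe sets over the filter, which applied to 25 of the 125, is given by the one with the highest mean.

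The study compared hippocampal gene expression in mutant and control mice, and its title refers to mice without CREB and CREM, transcription factors activated by cAMP and calcium signals. The 4 groups were labelled mutant with kainate, labelled mutant with saline, control with kainate and control with saline, with 3 arrays in each, and the labels number the arrays 1 to 3 within a group. Kainate, which activates glutamate receptors and evokes seizures, was given at 20 mg/kg into the peritoneum, and the hippocampi were taken 1 h after the injection. The animals were male and female littermates of 5 to 6 weeks, single-caged and handled for 5 days before the injection. Each array carried the RNA of 3 animals combined before labelling, so that 36 animals stand behind 12 pools and no array shows a single animal. The sources used here do not give the mutant alleles, the cells in which they were lost, the strain or the genotype of the controls. In pooled tissue RNA, fewer cells of a type and less RNA per cell cannot be told apart.

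C2H2 zinc finger proteins form the largest family of transcription factors in mammals. Each finger is a short loop held by a zinc ion, and an array of fingers reads a stretch of DNA letter by letter. Many family members carry a second domain that recruits partners: the KRAB domain binds the corepressor Trim28 and brings histone methylation to repeats and imprinted genes, the BTB domain forms dimers and binds the corepressors Ncor1 and Bcor or the ubiquitin ligase scaffold Cul3, and the SCAN domain pairs members with each other. In the hippocampus Zbtb20 is required for the identity of CA1 neurons, and Zbtb18 (also RP58) is a repressor needed for the maturation of cortical and hippocampal projection neurons.

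By symbol the 125 genes were 14 Zbtb genes (BTB domain), 4 with a SCAN domain name (Zscan29, Zkscan1, Zkscan8 and Zkscan16), 106 Zfp genes and 1 antisense RNA. The symbol is a weak guide to function, so the label of transcription factor genes does not hold for each of them. Zbtb11os1 is an RNA named for the strand opposite Zbtb11 and was not listed as protein coding in the gene table, whereas the other 124 were. Zfp185 encodes a LIM domain protein, Zfp106 an RNA-binding protein that motor neurons need, Zfp346 a protein that binds double-stranded RNA, Zfp207 a spindle assembly factor, Zfp91 a ubiquitin ligase and Zfp451 a SUMO ligase. Zfp593 and Zfp330 encode nucleolar proteins. The genes also share position: 55 of the 124 had another zinc finger gene as a direct neighbour among protein-coding genes, 19 lay on chromosome 7 and 17 on chromosome 17.

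Because the study concerns CREB and CREM, the promoters were read for the cAMP response element, the sequence that these factors bind. RefSeq promoters of build GRCm38.p6, each of 300 bases from 250 before to 50 after the start, were held for 106 of the 125 genes, 130 promoters in all. The motif searched was TGACGTCA, which is its own reverse complement. It was found in 4 of the 130 promoters (3.08%), against 588 of all 32851 promoters in the table (1.79%). These 4 belonged to Zbtb11, Zfp335, Zfp523 and Zfp868, and they are printed below together with 1 of the 5 Zbtb18 promoters in the table, the one with the most G and C. None of those 5 holds the motif or its 5-base arm, and Zbtb18 is one of the genes described first below. Capitals mark TGACGTCA and its arm TGACG, searched on both strands so that CGTCA also counts, and a full motif holds an arm on each strand. All 5 are written 5′ to 3′ on the strand of the gene.
Zbtb11, chr16:55973554-55973853, plus strand: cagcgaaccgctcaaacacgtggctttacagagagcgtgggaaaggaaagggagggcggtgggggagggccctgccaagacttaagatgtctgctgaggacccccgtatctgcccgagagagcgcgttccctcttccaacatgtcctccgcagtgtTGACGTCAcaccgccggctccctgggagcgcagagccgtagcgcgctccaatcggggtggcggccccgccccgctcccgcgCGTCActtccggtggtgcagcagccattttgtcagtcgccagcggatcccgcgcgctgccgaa
Zfp335, chr2:164911701-164912000, minus strand: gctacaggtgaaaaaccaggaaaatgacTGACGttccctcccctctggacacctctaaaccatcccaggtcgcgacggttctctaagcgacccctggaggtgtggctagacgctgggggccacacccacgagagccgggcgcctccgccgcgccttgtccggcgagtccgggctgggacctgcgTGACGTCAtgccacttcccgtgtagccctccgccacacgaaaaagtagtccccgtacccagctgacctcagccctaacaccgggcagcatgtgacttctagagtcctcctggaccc
Zfp523, chr17:28176946-28177245, plus strand: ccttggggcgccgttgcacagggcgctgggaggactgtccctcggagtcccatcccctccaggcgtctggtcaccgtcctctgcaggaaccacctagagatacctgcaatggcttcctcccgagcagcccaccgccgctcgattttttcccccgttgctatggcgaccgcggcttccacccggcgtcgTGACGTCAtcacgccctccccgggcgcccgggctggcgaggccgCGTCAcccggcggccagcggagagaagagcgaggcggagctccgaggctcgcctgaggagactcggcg
Zfp868, chr8:69625126-69625425, minus strand: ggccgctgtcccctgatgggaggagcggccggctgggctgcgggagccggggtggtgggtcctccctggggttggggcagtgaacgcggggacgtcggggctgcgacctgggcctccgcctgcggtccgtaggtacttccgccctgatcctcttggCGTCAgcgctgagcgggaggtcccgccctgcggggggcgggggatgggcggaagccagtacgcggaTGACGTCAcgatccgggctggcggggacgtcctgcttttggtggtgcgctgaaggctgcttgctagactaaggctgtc
Zbtb18, chr1:177442101-177442400, plus strand: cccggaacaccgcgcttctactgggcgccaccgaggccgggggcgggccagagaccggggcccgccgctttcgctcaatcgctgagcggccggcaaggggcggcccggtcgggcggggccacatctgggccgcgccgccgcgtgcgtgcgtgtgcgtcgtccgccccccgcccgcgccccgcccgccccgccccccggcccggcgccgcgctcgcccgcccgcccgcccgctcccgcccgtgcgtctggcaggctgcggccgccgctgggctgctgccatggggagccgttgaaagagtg
In each of the first 4 promoters the full motif stood with 1 further arm. The arm on its own account was found in 36 of the 130 promoters (27.7%), against 20.8% of all promoters. The AP-1 motif TGACTCA, read on both strands, was found in 6 (4.62%, against 5.20%), with Zfp871 and Zkscan1 among them, and the Egr motif GCGGGGGCG in 2 (1.54%, against 2.91%), those of Zbtb14 and Zfp592. The promoters of the 125 genes were richer in G and C (median 56.3%, against 52.7% of all) and in CpG (median observed over expected ratio 0.703, against 0.384). A match is a description of these letters and not evidence of binding.

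Values are GCRMA summaries as deposited, on a log2 scale, so that a difference of 1 is a factor of 2 in signal. The median of an array was 3.77 to 4.07, and 5741 to 6378 of its 12411 probe sets exceeded 4. Precision is limited by the number of arrays. The arrays numbered 1 stood apart from those numbered 2 and 3 in every group: over all tested probe sets, deviations from the group mean correlated at 0.361 to 0.881 in the 18 pairs of arrays with the same number, and at 0.313 to 0.887 over the 125 genes. Results are therefore given without and with the number as a block. The labels call the arrays biological replicates, and the meaning of the number is not stated in the sources used here. The Creb1 probe set was higher in labelled mutant arrays, at 8.47, 7.64 and 7.82 after kainate and 8.33, 8.26 and 8.10 after saline, against 7.14, 6.97 and 6.83 in control arrays after kainate and 7.58, 7.51 and 6.94 after saline. The Crem probe set lay below the filter at 2.82 to 3.35. It is not known here whether either probe set reads the deleted part of its gene, so a raised Creb1 signal does not show that the deletion failed, and neither probe set checks the labels. These arrays are therefore called labelled mutant, and every genotype direction below rests on the labels alone.

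Of the 125 genes, 106 were over 4 on all 12 arrays and 19 on 3 to 11 of them. Their means ran from 3.95 to 10.7, with 48 under 5, 60 from 5 to 7 and 17 at 7 or more. Many of these genes were thus read close to the level of the filter, and the level of one probe set cannot be set against that of another. Zfp185, Zfp217 and Zfp677 were just inside the filter, each over 4 on 4 arrays, with means of 3.96, 3.97 and 3.95. Zbtb26, Zfp579, Zkscan17 and Zfp74, over 4 on 2 arrays and with means of 3.60, 3.52, 3.64 and 3.89, were just outside it. Probe sets of 18 of the 125 carry a suffix that marks probes shared with other transcripts or chosen by relaxed rules, among them those of Zfp207, Zfp281, Zfp467, Zfp628 and Zscan29, and members of this family resemble one another in sequence, so such values may hold signal from relatives.

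The first question was whether kainate changed the zinc finger genes within 1 h. In labelled mutant hippocampi none of the 125 passed the test without the block (limma, Benjamini-Hochberg over 6334 probe sets at 0.05), where 0.174% of all tested probe sets passed, and none in control hippocampi, where 0.158% passed. At an unadjusted p under 0.05 there were 8 genes in labelled mutant arrays (6.4%, against 6.28% of all tested) and 19 in control arrays (15.2%, against 11.6%). With the block the count was again 0 in each genotype, with 0.363% of all tested in labelled mutant and 0.584% in control arrays.

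The whole set lay slightly lower after kainate. The median log2 difference was -0.08 in labelled mutant arrays, where that of all tested probe sets was -0.04, and -0.02 in control arrays, against 0.02. In labelled mutant arrays 29.6% of the 125 genes had a difference above 0, against 41.7% of all tested, and in control arrays 44% had one, against 53.3%. With each array centred on its median the control median of the genes was above 0, at 0.03, so the sign of that small shift rests on the scaling. Groups of 3 arrays did not overlap for 15.2% of the genes in labelled mutant arrays, against 9.13% of all tested, with 11.2% lower, against 5.46%. In control arrays the share was 16%, against 19.4%.

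**Figure D1:**
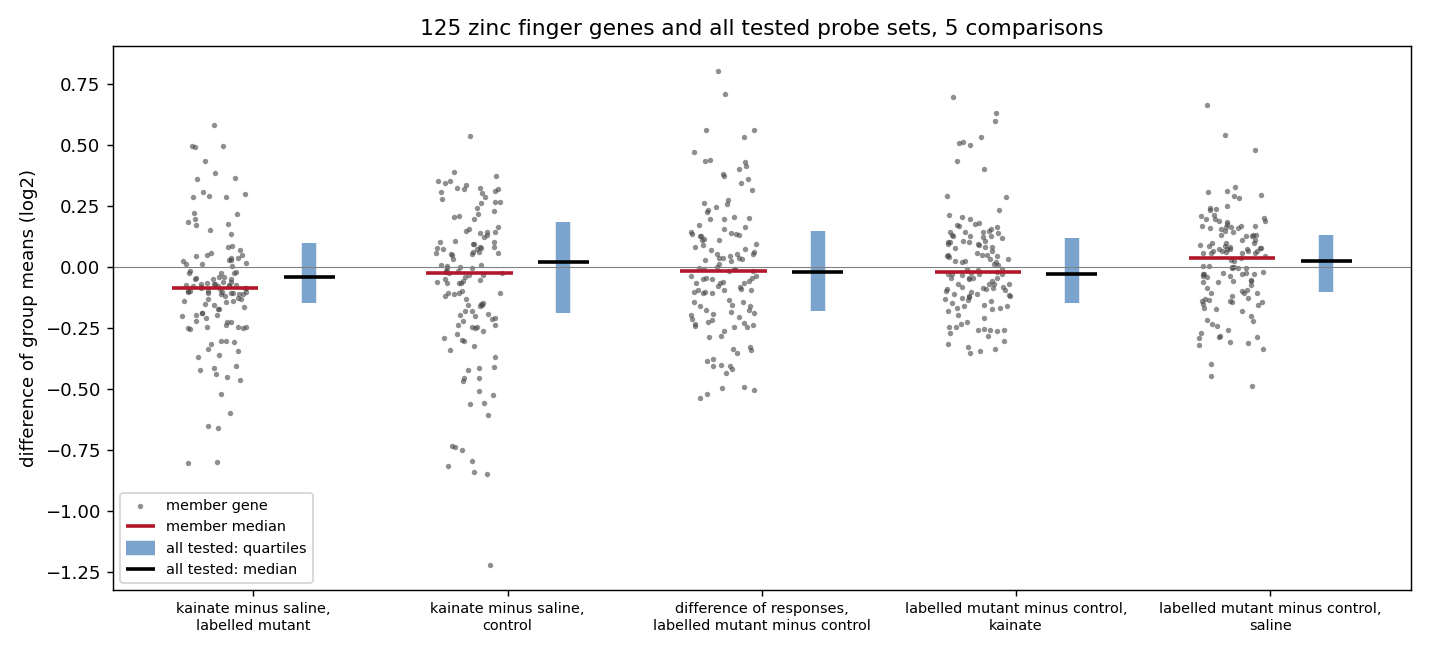
Differences between group means (log2, vertical axis) of the 125 zinc finger genes (grey points) in the 5 comparisons, with their median (red line) and, for all tested probe sets, the median (black line) and the quartiles (blue bar). The medians of the genes lie between -0.08 and 0.04, and the widest scatter is that of kainate in control arrays, from -1.22 to 0.54.

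With the genotypes averaged, which puts 6 arrays on each side, no gene passed without the block, where 0.41% of all tested probe sets passed, and 20 were at an unadjusted p under 0.05 (16%, against 14.7%). With the block, which compares kainate and saline arrays of the same number, 18 of the 125 passed (14.4%), against 7.63% of all tested. Of these, 16 were lower after kainate (12.8%, against 5.42%) and 2 were higher (1.6%, against 2.21%). These shares are descriptions and were not tested against each other. Without the arrays numbered 1, 30 of the 125 passed (24%), close to the 22.3% of all tested that did so, and 16 of the 18 were among them. Leaving out a single array with the block gave between 0 and 26 genes, with 26 when labelled mutant kainate array 1 was left out and 0 without labelled mutant saline array 2 or 3, control kainate array 2 or control saline array 3. Shares of all tested probe sets are not given for these fits.

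The BTB genes gave 5 of the 16 that fell, from 14 measured. Zbtb18 was at 11.24, 9.79 and 9.97 in labelled mutant arrays 1 to 3 after kainate and at 11.07, 11.28 and 11.07 after saline. In control arrays it was at 10.98, 9.73 and 9.81 after kainate and at 11.15, 10.98 and 10.90 after saline. In both genotypes the kainate arrays numbered 2 and 3 were lower than every saline array, whereas the kainate array numbered 1 lay among the saline values. The averaged difference was -0.82 (SE 0.273, 95% interval -1.42 to -0.22), with limma adjusted p = 0.223 without the block and 0.0359 with it. Its call was lost with the block and quantile normalization together (-0.76, limma adjusted p = 0.0512). Within number 1 the difference was near 0 (0.17 in labelled mutant and -0.18 in control arrays), and in numbers 2 and 3 it lay between -1.48 and -1.09.

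Zbtb41 showed the same pattern at a lower level. In labelled mutant arrays it was at 6.14, 5.07 and 5.19 after kainate and at 6.14, 6.16 and 6.06 after saline, and in control arrays at 5.80, 5.04 and 5.04 after kainate and at 5.99, 6.30 and 5.84 after saline. The control groups did not overlap, and in labelled mutant animals both arrays numbered 1 were at 6.14. The averaged difference was -0.70 (SE 0.204, adjusted p = 0.165 by limma without the block and 0.0346 with it). Number 1 gave 0.01 in labelled mutant and -0.19 in control arrays, and the other pairs gave -1.26 to -0.80.

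Zbtb11, a nuclear factor whose human gene is mutated in an inherited intellectual disability and whose promoter with its cAMP response element is printed above, was at 7.72, 7.49 and 7.61 in labelled mutant arrays after kainate and at 7.82, 8.15 and 7.95 after saline. Control arrays gave 7.52, 7.49 and 7.38 after kainate and 7.85, 8.06 and 7.74 after saline. All 3 kainate arrays were below all 3 saline arrays in each genotype. The difference was -0.37 in labelled mutant and -0.42 in control arrays (SE 0.13 each), and -0.40 when averaged (SE 0.0921, limma adjusted p = 0.111 without the block and 0.0320 with it). Zbtb11 was lower after kainate within all 3 numbers of both genotypes, with values of -0.10, -0.67 and -0.34 in labelled mutant and -0.33, -0.57 and -0.37 in control arrays.

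Zbtb20, the CA1 identity factor, was at 7.89, 8.54 and 8.42 in labelled mutant arrays after kainate and at 8.31, 8.82 and 8.67 after saline, and at 8.17, 8.55 and 8.43 in control arrays after kainate against 8.24, 8.80 and 8.93 after saline. The groups overlapped in each genotype because number 1 was low with every treatment, but each kainate array was lower than the saline array of its own number. The averaged difference was -0.29 (SE 0.162), with adjusted p = 0.432 by limma without the block and 0.0428 with it. The other 3 Zbtb20 probe sets over the filter gave -0.06, 0.14 and -0.16, and none passed. Zbtb43 differed by -0.35 when averaged (adjusted p = 0.217 by limma without the block, 0.0346 with it), and its other probe set gave -0.02.

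**Figure D2:**
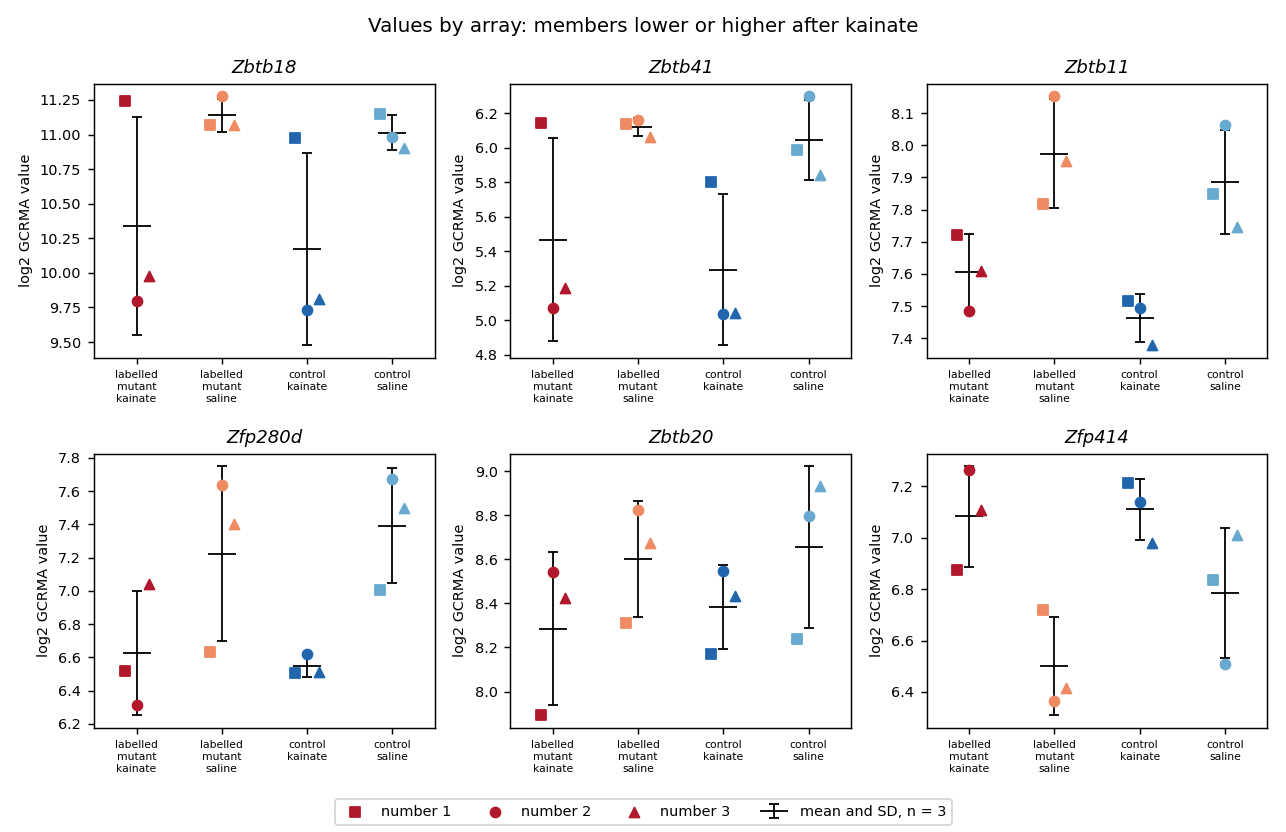
Log2 GCRMA values of 6 genes on each array, by group, with the group mean and SD (n = 3) and the array number as the marker. Zbtb18 and Zbtb41 are low on the kainate arrays numbered 2 and 3 and not on number 1, Zbtb11 is low on all 6 kainate arrays, and Zfp414 is higher after kainate.

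The Zfp genes gave 10 of the 16 that fell, from 106 measured. Zfp445, which keeps imprinted genes methylated, was at 8.25, 7.54 and 7.08 in labelled mutant arrays after kainate and at 8.33, 7.98 and 7.96 after saline, and at 8.03, 7.38 and 6.93 in control arrays after kainate against 8.32, 8.09 and 7.75 after saline. The groups overlapped through number 1, and each of the 6 kainate arrays was below the saline array of its number. Averaged over genotypes it differed by -0.54 (SE 0.231, limma adjusted p = 0.324 without the block and 0.0247 with it). Zfp809, which silences retroviruses together with Trim28, did not pass, with -0.04 in labelled mutant and -0.07 in control arrays.

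Zfp280d and Zfp280c are relatives whose synonyms recall a fly insulator protein, suppressor of Hairy wing. Zfp280d was at 6.52, 6.32 and 7.04 in labelled mutant arrays after kainate and at 6.63, 7.64 and 7.40 after saline, with overlap. In control arrays it was at 6.50, 6.62 and 6.51 after kainate and at 7.01, 7.67 and 7.50 after saline, and these groups did not overlap. Averaged it differed by -0.72 (SE 0.196, limma adjusted p = 0.151 without the block and 0.0292 with it). Zfp280c differed by -0.11 in labelled mutant and by -0.81 in control arrays (SE 0.217 each), averaged -0.46 (limma adjusted p = 0.223 without and 0.0439 with the block). The difference between its 2 responses was 0.71 (SE 0.307) and did not pass, with limma adjusted p = 1.

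Zfp84, Zfp871 and Zfp207 had large spreads within groups. Zfp84 gave 6.97, 4.92 and 4.56 in labelled mutant arrays after kainate and 6.89, 6.20 and 5.34 after saline, and 6.11, 4.87 and 3.87 in control arrays after kainate against 6.80, 6.19 and 5.53 after saline. Number 1 was the highest array in all 4 groups and number 3 the lowest, and its difference of -0.94 (SE 0.505) had a limma adjusted p of 0.416 without the block and 0.0184 with it. Its other probe set differed by 0.01. Zfp871 ran the other way across numbers, at 5.08, 7.25 and 6.83 in labelled mutant kainate arrays and 6.26, 7.70 and 7.60 with saline, and at 5.63, 7.002 and 7.38 in control kainate arrays and 6.83, 7.75 and 7.64 with saline. Every kainate array of Zfp871 was below the saline array of its number, its averaged difference was -0.77 (limma adjusted p = 0.0218 with the block), and its 2 other probe sets gave -0.24 and -0.26 and did not pass. The spindle factor gene Zfp207 differed by -0.66 (adjusted p = 0.0247 by limma with the block) and was also highest on number 1.

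The remaining genes that fell with the block were Zkscan1 at -0.40 (the only SCAN gene of 4), Zfp704 and Zfp654 at -0.32, Zfp664 at -0.30 and Zfp715 at -0.29, with limma adjusted p from 0.0365 to 0.0470 with the block. The other Zfp704 probe set went the opposite way by nearly the same amount, at 0.31, and did not pass (limma adjusted p = 0.0921 with the block), so the direction for Zfp704 depends on the probe set. The other Zkscan1 probe set gave -0.25 and did not pass. The 2 that rose were Zfp414 and Zfp628. Zfp414 was at 6.88, 7.26 and 7.11 in labelled mutant arrays after kainate and at 6.72, 6.36 and 6.42 after saline, without overlap, and at 7.21, 7.14 and 6.98 in control arrays after kainate against 6.84, 6.51 and 7.01 after saline, with overlap. Its averaged difference was 0.45 (SE 0.117, limma adjusted p = 0.140 without the block and 0.0430 with it), and that of Zfp628 was 0.42 (0.364 and 0.0469).

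**Figure D3:**
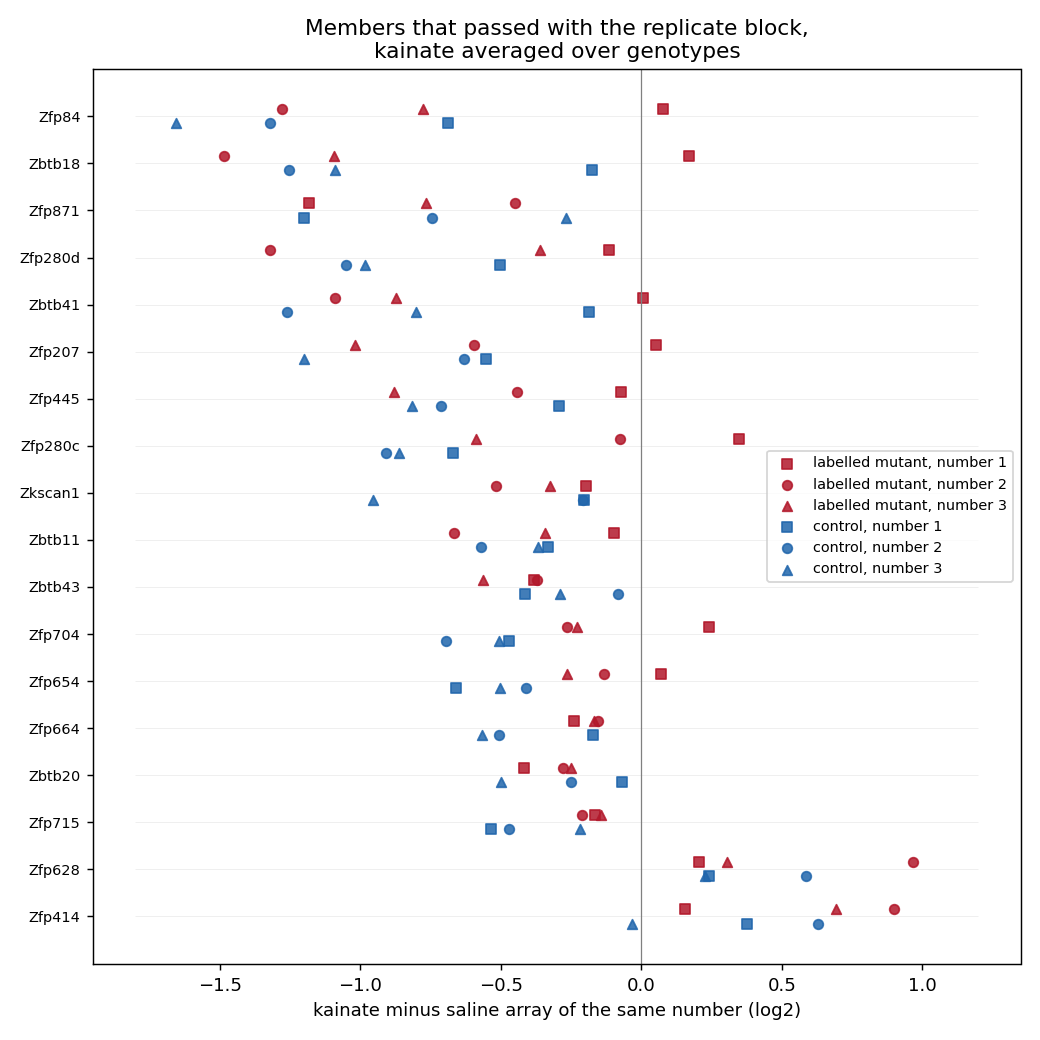
Difference between the kainate and the saline array of the same number (log2, horizontal axis) for the 18 genes that passed with the block, in labelled mutant (red) and control (blue) animals, with the number as the marker. For Zbtb18 and Zbtb41 the squares of number 1 sit near 0 and the other 4 markers at -0.80 or below.

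Among the other genes whose promoters are printed above, Zfp523 and Zfp868 passed no comparison. Zfp523 was at 6.60, 7.38 and 7.43 in labelled mutant arrays after kainate and at 7.19, 7.42 and 7.54 after saline, and at 7.40, 7.55 and 7.50 in control arrays after kainate against 7.27, 7.71 and 7.94 after saline. The groups overlapped in each genotype, and the low value of 6.60 was that of array 1. Zfp868 differed by -0.10 in labelled mutant and by -0.18 in control arrays (SE 0.201 each). Of the 4 genes with the full cAMP response element, then, Zbtb11 alone passed a test of kainate, with the block and averaged over genotypes, and none passed a test of the difference between genotypes in response.

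Factors known from the nervous system other than Zbtb18 and Zbtb20 passed in neither fit for kainate. These were Zfp423, Zfp521, Zfp462, Zfp536, Zfp609, Zfp335 and Zfp24, the last needed for myelination. Their averaged differences lay between -0.08 (Zfp462) and 0.22 (Zfp423). The 3 genes whose products bind methylated CpG did not pass either, with averaged differences of -0.20 for Zbtb33, 0.06 for Zbtb4 and -0.14 for Zbtb38. Zbtb33 was at 7.91, 7.58 and 7.59 in labelled mutant arrays after kainate and at 7.96, 7.81 and 7.77 after saline, and at 7.57, 7.69 and 7.66 in control arrays after kainate against 8.08, 7.95 and 7.63 after saline, so that the groups overlapped in each genotype.

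Over all 125 genes, 14 were lower after kainate in each of the 6 pairs of arrays with the same number and genotype (11.2%, against 6.99% of all tested probe sets). They were Zbtb11, Zbtb20, Zbtb43, Zkscan1, Zfp9, Zfp12, Zfp235, Zfp280b, Zfp280d, Zfp445, Zfp664, Zfp715, Zfp790 and Zfp871. Higher in all 6 pairs were 4 (3.2%, against 4.36%), namely Zbtb7a, Zfp512, Zfp628 and Zfp710. Zbtb7a, a repressor of many lineages also called LRF, differed by 0.54 in control arrays (SE 0.183) and by 0.13 in labelled mutant arrays, and passed neither test (limma adjusted p = 0.424 and 0.976).

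Other probe sets of a gene were a check that the choice by mean did not use. Of the 18 genes, 7 had 11 other probe sets over the filter, of which 8 had the same sign and none of those 8 passed with the block. Over the 25 genes with several probe sets, 23 of 34 others had the sign of the chosen one in the averaged kainate comparison. Conversely, 3 genes passed only through a probe set that was not the chosen one, out of 34 such probe sets. For averaged kainate with the block 7.63% of all tested probe sets passed, and these shares were not tested against each other. A second Zbtb14 probe set, of a gene for a repressor of the Myc promoter, was at 4.57, 3.21 and 3.17 in labelled mutant kainate arrays and 4.41, 4.28 and 3.88 with saline, and at 3.69, 3.12 and 3.19 in control kainate arrays and 4.81, 4.31 and 4.61 with saline. The control groups did not overlap, and its averaged difference was -0.89 (adjusted p = 0.0128 by limma with the block), whereas the chosen Zbtb14 probe set gave -0.21. Among kainate arrays only labelled mutant array 1 was over 4. This probe set thus met the filter through the saline arrays, where it was higher, and its call rests on values near the filter. A probe set of Zfp120 gave -1.11 (0.0153) and one of Zfp322a -0.66 (0.0315), both limma adjusted p-values with the block. Within numbers 1 to 3, averaged over genotypes, the chosen Zfp120 probe set gave -0.14, 0.12 and 0.25. The chosen one of Zfp322a gave -0.10, -0.35 and 0.13. The Zfp322a probe set that passed was also near the filter, with means of 4.48 on number 1 and 4.46 on numbers 2 and 3.

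The second question was whether the response differed between labelled mutant and control animals. None of the 125 passed, with or without the block, and none of all tested probe sets did (0%). The median of the difference between responses was -0.02 over the 125 genes and -0.02 over all tested. An unadjusted p under 0.05 was reached by 6 of them (4.8%, against 2.32% of all tested). The 3 smallest unadjusted p-values were those of Zfp273 (-0.53, SE 0.183), Zfp800 (-0.52, SE 0.199) and Zfp654 (0.42, SE 0.174).

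The third question was whether the genes differed between labelled mutant and control animals under the same treatment. After kainate none of the 125 passed without the block, where 0.0632% of all tested did, nor with it, where 0.111% did. After saline none passed without the block, where 0% of all tested did, nor with it, where 0.142% did. An unadjusted p under 0.05 was reached by 7 genes after kainate (5.6%, against 4.67% of all tested) and by 7 after saline (5.6%, against 3.88%). The median difference was -0.02 after kainate, against -0.03 over all tested, and 0.04 after saline, against 0.02. Groups did not overlap for 12.8% of the genes after kainate, against 10.7% of all tested, and for 8.8% after saline, against 8.81%.

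Averaged over both treatments none passed without the block, where 0.253% of all tested did, with 6 at an unadjusted p under 0.05 (4.8%, against 6.47%), and 1 of 125 (0.8%) passed with it, against 2.32%. This was Zbtb11os1, the antisense RNA. It was at 6.11, 5.30 and 5.85 in labelled mutant arrays after kainate against 5.23, 4.96 and 4.98 in control arrays, and at 5.81, 5.18 and 5.17 in labelled mutant arrays after saline against 5.57, 4.50 and 4.48 in control arrays. After kainate the groups did not overlap, after saline they did, and in each of the 6 pairs of the same number and treatment the labelled mutant array was higher. The averaged difference was 0.62 (SE 0.221, 95% interval 0.13 to 1.11, limma adjusted p = 0.585 without the block and 0.0311 with it). Zbtb11 itself did not pass, at 0.14 after kainate, 0.09 after saline and 0.12 averaged. The block call of Zbtb11os1 was kept in 2 of the 12 alternatives with a single array omitted, which gave limma adjusted p-values from 0.0205 to 0.1004.

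The next smallest p-values were those of Zfp467 and Zfp335. Zfp467, a factor known from the choice between bone and fat cells, was at 7.21, 7.52 and 7.57 in labelled mutant arrays after kainate against 6.85, 6.91 and 7.23 in control arrays, and at 7.49, 7.05 and 6.89 after saline against 6.70, 6.63 and 6.66 in control arrays. The saline groups did not overlap. Over both treatments it differed by 0.46 (SE 0.123) and did not pass (limma adjusted p = 0.243 without the block and 0.107 with it).

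Zfp335, whose human counterpart is a microcephaly gene and whose promoter is printed above, was at 4.39, 4.31 and 4.33 in labelled mutant arrays after kainate against 4.64, 4.56 and 4.53 in control arrays. After saline it was at 4.24, 4.24 and 4.28 in labelled mutant arrays against 4.70, 4.54 and 4.34 in control arrays. Both pairs of groups were free of overlap, at a level just above the filter. Over both treatments it differed by -0.25 (SE 0.0685) and did not pass (limma adjusted p = 0.249 without the block and 0.103 with it).

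Zfp423, a factor of neural progenitors and the cerebellum, was at 6.22, 6.09 and 5.43 in labelled mutant arrays after kainate against 5.27, 5.42 and 5.16 in control arrays, and at 5.78, 5.36 and 5.10 after saline against 5.64, 5.19 and 5.22 in control arrays. The kainate groups did not overlap, with 5.43 and 5.42 as the nearest arrays, and the saline groups did. Neither difference passed (0.63 after kainate and 0.07 after saline, SE 0.234 each, limma adjusted p = 0.914 and 1).

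**Figure D4:**
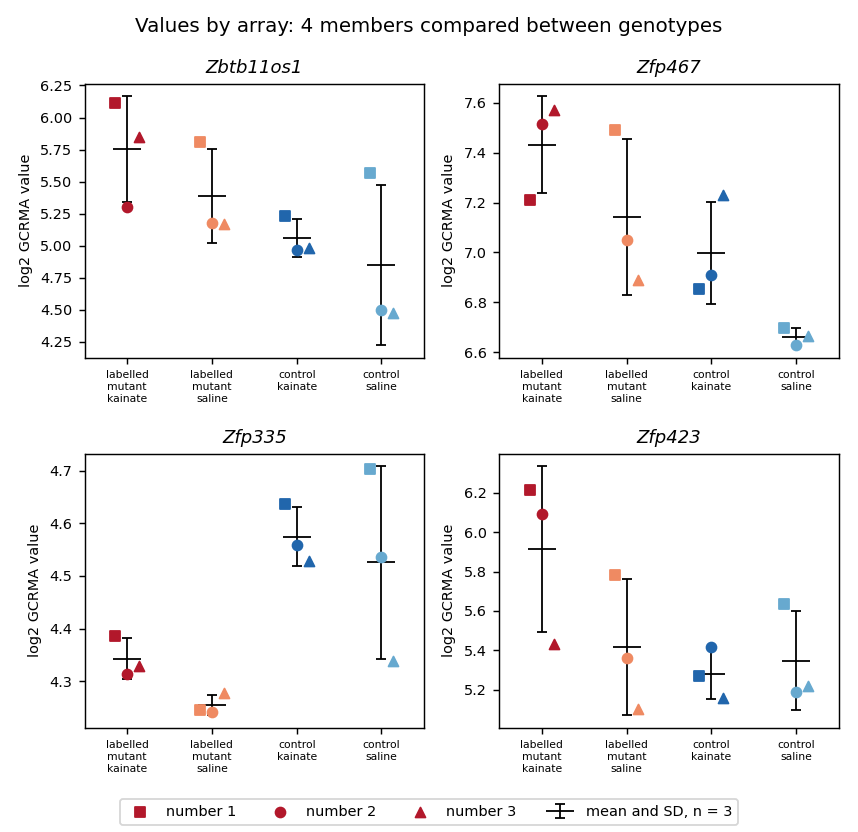
Log2 GCRMA values of 4 genes on each array, by group, with the group mean and SD (n = 3) and the array number as the marker. Zbtb11os1, Zfp467 and Zfp423 have higher means in labelled mutant arrays (left pair of groups) after kainate, and Zfp335 is lower on all 6 of them within each treatment.

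Among array number, treatment and genotype, number held the largest share of the spread for most of these genes. With 3 levels, more than treatment or genotype has, number can take a larger share for that reason alone. The remainder of the spread is not given here. It held a median of 31.7% of a gene's sum of squares over the 125 genes, against 33.7% over all tested, while treatment held 11.3% (against 9.22%) and genotype 3.04% (against 3.41%). Number was the largest of the 3 for 86 of the 125 genes (68.8%, against 66.8% of all tested). For 17 genes (13.6%, against 19.4%) all 4 arrays numbered 1 were above, or all below, the other 8. Those above were Zfp106 (1.41), Zfp180 (1.22), Zfp207 (1.15), Zfp704 (1.00), Zfp609 (0.76), Zbtb4 (0.71), Zfp810 (0.66), Zfp532 (0.59), Zkscan8 (0.54) and Zfp518b (0.50). Those below were Zfp871 (-1.44), Zfp462 (-1.37), Zfp318 (-0.89), Zfp428 (-0.64), Zfp329 (-0.63), Zbtb38 (-0.52) and Zbtb20 (-0.49). Zbtb4 and Zbtb38 both bind methylated CpG and went opposite ways, and the third such gene, Zbtb33 (Kaiso), overlapped, at 0.17.

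Probe sets of 1 gene could part by number. For Zfp148, a factor that binds G-rich promoters, 1 of 4 probe sets was lower on the arrays numbered 1 (-2.24), and the other 3 were higher there, by 0.98, 0.58 and 0.53. Genes listed above also parted. A second Zfp871 probe set was at 0.96 and one of Zfp318 at 0.60, each with all 4 arrays numbered 1 above the other 8. The remaining Zfp871 and Zfp318 probe sets were at -0.36 and -0.58, with overlap. The other Zfp704 probe set was at -0.30, also with overlap, against 1.00 for the chosen one. All 4 Zbtb20 probe sets were lower on number 1.

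**Figure D5:**
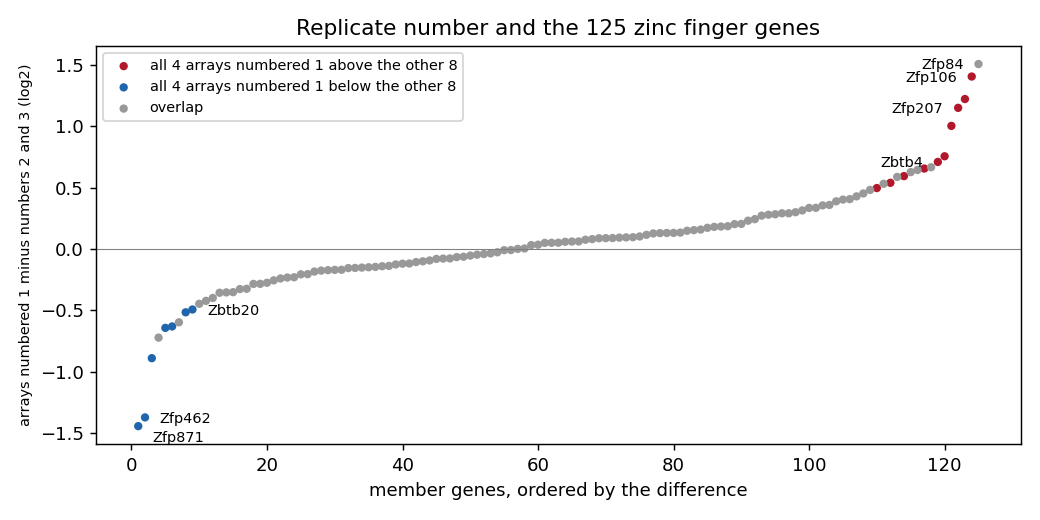
Mean of the 4 arrays numbered 1 minus the mean of the 8 arrays numbered 2 and 3 (log2, vertical axis) for the 125 genes in rising order. The 10 red and 7 blue genes have all 4 arrays numbered 1 above or below the other 8, and the ends reach -1.44 (Zfp871) and 1.51 (Zfp84, which overlaps).

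Partner genes of the family were read from lists. Of 21 corepressor and heterochromatin genes of the KRAB pathway 9 were measured, with Atrx and Chd4 among them, and none passed any of the 7 comparisons without the block. With the block Morc3, a chromatin ATPase, was lower after kainate (-0.33 averaged, limma adjusted p = 0.0371). Of 19 corepressor and ubiquitin partners of BTB proteins 4 were measured (Bcor, Cul3, Hdac4 and Mta3) and none passed in either fit. Of 67 genes of other C2H2 factor families 19 were measured. None of these passed without the block, and with it Klf6 was higher (0.58, limma adjusted p = 0.0277) and Zeb2 lower (-0.50, 0.0411) after kainate, and Bcl11b, a factor of hippocampal and cortical neurons, was lower in labelled mutant arrays after saline (-0.91, 0.0423) and averaged (-0.84, 0.00319).

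Some markers of cell types differed between the groups, and only Plek passed without the block. With the block 2.32% of all tested probe sets passed for averaged genotype and 7.63% for averaged kainate. The ranges given below overlap for the astrocyte, principal neuron and interneuron markers. Of 10 microglia markers 5 were measured, and their mean level was 6.30 to 6.98 on labelled mutant arrays against 5.87 to 6.17 on control arrays. With the genotypes compared over both treatments 1 of the 5 passed without the block (Plek, 1.24) and 4 with it. Of 10 astrocyte markers 8 were measured, at 8.77 to 9.07 on labelled mutant arrays against 8.64 to 8.81 on control arrays. With the block 3 of these were higher in labelled mutant arrays over both treatments, and 1 was lower for averaged kainate. Of 13 principal neuron markers 6 were measured, Zbtb20 among them, at 8.56 to 8.95 against 8.94 to 9.22, and Bcl11b and Fibcd1 were lower with the block. Of 10 interneuron markers 3 were measured, at 6.87 to 7.91 on kainate arrays against 7.88 to 8.18 on saline arrays, with Maf lower after kainate with the block (-0.50). Of the oligodendrocyte markers 2 of 10 were measured, of the choroid plexus markers 1 of 8 (Clic6) and of the endothelial markers 3 of 6, and of these Ermn was lower after kainate with the block (-0.41). The part of these shifts in the values of Zbtb18, Zbtb20, Zbtb11os1, Zfp467 and Zfp423 was not tested.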

How the data were processed

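The deposited values are log2 signals, which the submitters' processing notes credit to GCRMA in R 2.4.1. The sources used here do not give the settings or the annotation. Of 12477 entries 66 are control probe sets. The 6334 probe sets with a value over 4 on at least 3 of 12 arrays were tested with limma 3.58.1 in R 4.3.3 (lmFit with a mean for each group, then eBayes with trend). Benjamini-Hochberg adjustment at 0.05 was made separately in 7 comparisons, 2 of them averages. Entrez identifiers linked all 125 genes to the RefSeq gene table, and no symbol differed.

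The array number entered as a block in an alternative fit, alone and combined with other choices. Pairing was checked by correlating deviations from the group means: all 18 pairs of the same number were above 0.1. Arrays numbered 2 and 3 of different groups also correlated, at 0.309 to 0.583, so the pairing mainly sets number 1 apart.

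The 125 genes and the gene lists were chosen with earlier results of these data known, and the roles used for ordering were chosen after the values were seen. Named genes were those that passed in either fit, the 8 with the smallest unadjusted p in each comparison, a list of genes with known roles, and genes whose probe sets disagree. The fits of numbers 2 and 3 with the block, and the block with each array left out, were chosen after seeing the data. The calculations were tested on simulated data. Each p-value sets a difference against the spread between arrays, each of which carried a pool of animals. Without the block that spread includes the differences between array numbers, and with the block these are removed.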

Additional observations from a re-analysis of the deposited data

Results flagged for a closer look

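In 6 of the 125 genes the 3 pairs of arrays with the same number moved one way after kainate in labelled mutant animals and the other way in control animals. The share of all tested probe sets with this pattern was not computed. The count therefore does not show that such opposite moves are more frequent among these genes. Zfp273 had a mean difference of -0.22 in labelled mutant and 0.31 in control arrays, with -0.5343 as the difference between these responses. Zfp800 was at -0.19 in labelled mutant and 0.32 in control arrays (-0.5178), Zfp950 at -0.15 in labelled mutant and 0.34 in control arrays (-0.4949) and Zfp952 at -0.07 in labelled mutant and 0.22 in control arrays (-0.2858). The opposite way went Zfp948, at 0.44 in labelled mutant and -0.37 in control arrays (0.8056), and Zfp330, at 0.15 in labelled mutant and -0.21 in control arrays (0.3627). The interaction was tested for each and did not pass (limma adjusted p = 1 for all 6). Zfp950 and Zfp330 were named after their values were seen. Zfp273, Zfp800, Zfp950 and Zfp952 were read near the filter, with means of 3.85 to 4.55 on the arrays numbered 1 and on the others. Over all 12411 probe sets without the filter, the median kainate difference had the same signs, at -0.06 in labelled mutant and 0.12 in control arrays. Zfp948 and Zfp330, with means of 5.40 to 6.78, went against these signs. The part of this wider shift in the values of the low genes was not tested.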

How the results depend on the processing

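Without the block, no zinc finger gene passed in any of the 7 comparisons under centring, quantile normalization, no filter on low values, a filter at 5, no intensity trend, robust variance or the mean of all probe sets of a gene. With the replicate block 18 passed for averaged kainate (14.4%, against 7.63% of all tested) and 1 for averaged genotype (0.8%, against 2.32%). With the block and quantile normalization these were 10 (8%, against 5.98%) and 2 (1.6%, against 2.02%), the second of the 2 being Zfp335. All 10 were among the 18, and the 8 lost were Zbtb18, Zbtb43, Zfp280c, Zfp654, Zfp664, Zfp704, Zfp715 and Zkscan1. Of all tested probe sets that passed for averaged kainate, 140 were higher and 343 lower with the block, and 157 and 222 with quantile normalization as well. With numbers 2 and 3 alone 8 genes passed for kainate in labelled mutant arrays (6.4%, against 9.41% of all tested), 10 in control arrays (8%, against 10.1%) and 30 averaged (24%, against 22.3%). With numbers 2 and 3 alone and the block, these counts were 12 (9.6%, against 11.5%), 13 (10.4%, against 12.5%) and 32 (25.6%, against 24.9%). For averaged genotype the count was then 1 (0.8%, against 1.26%).

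Leaving out 1 array without the block gave 0 to 4 for averaged kainate and 0 elsewhere. The 4 (3.2%, against 3.84% of all tested), without labelled mutant kainate array 1, were Zbtb11, Zbtb18, Zbtb41 and Zfp414. Leaving out 1 array with the block gave 0 to 26 for averaged kainate, 0 to 2 for kainate in labelled mutant and 0 to 5 in control arrays, and 0 to 1 for averaged genotype. Shares of all tested probe sets are not given for these fits, so the counts describe only the dependence on single arrays. Calls over the whole array moved too. The 5 in control arrays came without labelled mutant kainate array 1, where 25 of all 6334 tested probe sets were higher and 101 lower. With all 12 arrays and the block these were 17 and 20. The averaged kainate count was 26 without labelled mutant kainate array 1, 24 without labelled mutant saline array 1, 3 or 1 without labelled mutant kainate array 2 or 3, and 0 without labelled mutant saline array 2 or 3, without control kainate array 2 or without control saline array 3. It was 15 or 1 without control kainate array 1 or 3, and 18 or 2 without control saline array 1 or 2. The Zbtb11os1 call held only without control saline array 1 or labelled mutant kainate array 2, with limma adjusted p from 0.0205 to 0.1004 over the 12. The cause was not tested. Of 68 pairs of a named gene and a comparison none changed sign. These pairs were picked by p-value in the same data, and many settings keep the same group means, so stable signs were largely given in advance. No pair passed in the fit without the block. Over pairs and settings, 171 brought a call and 2189 stayed without one. Signal near background limits the 48 genes with a mean under 5.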
